A study of Mus musculus with 2 samples.

Results

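Fibroblast growth factor (FGF) ligands and FGF binding proteins were described across marker-gated lineages of mouse somitic gastruloids, which are grown from stem cells in culture and form trunk-like tissues. The 10 genes, of 32285 in the count tables, were chosen by symbol and comprise 8 secreted ligands (Fgf3, Fgf4, Fgf5, Fgf8, Fgf10, Fgf15, Fgf17 and Fgf18) and 2 binding proteins (Fgfbp1 and Fgfbp3). The comparison asks which lineage carries each transcript and how its level differs when Zeb2, a zinc-finger transcriptional repressor, is targeted for degradation.

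FGF ligands bind receptor tyrosine kinases on nearby cells together with heparan sulfate, and signal largely through the RAS and ERK cascade. In the vertebrate trunk, FGF made in the posterior growth zone maintains axial progenitors and presomitic mesoderm, and its decline towards the anterior accompanies somite formation. FGF binding proteins are secreted carriers that can release FGFs from heparan sulfate in the matrix.

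Both libraries were made from an E14 embryonic stem cell line with a triple reporter, in which the endogenous Zeb2 protein carried an HA-FKBP12F36V degron tag. One library was from untreated gastruloids. The other was from gastruloids given 100 nM dTAG-13, a small molecule that directs the tagged protein to degradation, at 72 and 96 h. The sample labels call the control untreated, whereas the series text names DMSO, and no source used here gives the harvest hour. In both groups 300 cells were seeded, CHIR99021 (a Wnt pathway activator) was given at 3 µM from 48 h, and aggregates were moved to 10% Matrigel at 96 h. Each library was a pool of about 32 gastruloids, from which 10000 sorted live cells were loaded.

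Each group was 1 library, so the differences have no replicate check and the groups were not tested against each other. Quality filters kept 6231 untreated and 6688 dTAG-13 cells, with medians of 20073 and 20207 unique molecular identifiers (UMIs, counted transcript molecules) per cell and totals of 140019633 and 151601709. Of the kept barcodes, 10 sequences occurred in both libraries. UMIs were summed over cells and scaled to a common total (CPM). Intervals are 95% exact intervals and cover counting error only. A ratio is the log2 of dTAG-13 over untreated with 1 CPM added to each level, and its interval is computed without that addition, so it can lie farther from 0 than the ratio. A gene is called higher or lower when this ratio reaches 1.5-fold and the gene has at least 10 UMIs over both libraries. The counts are 3' tags without length scaling, so levels are compared within a gene and not between genes. The Zeb2 transcript stood at 67.9 CPM untreated and 94.6 CPM with dTAG-13. The compound acts on the protein, so this level does not check the labels.

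A cell was placed in a lineage gate when it held at least 2 UMIs of the gate's marker. The gates were T (axial progenitors, notochord and some presomitic mesoderm), Sox2 (neural, axial progenitor and pluripotent cells), Tbx6 (presomitic mesoderm) and Meox1 (somites). The others were Pim2, Sfn (epithelium), Sox17 (endoderm), Eomes (mesendoderm) and Zfp42 (naive pluripotency). T-positive cells made up 22.3% of untreated and 14.3% of dTAG-13 cells, and Tbx6-positive cells 8.14% and 2.68%. Meox1-positive cells made up 14.7% and 9.36%. In contrast, Sfn-positive cells made up 5.12% and 20.01%, and Pim2-positive cells 4.14% and 13.4%. Sox2-positive cells made up 48.0% and 45.6%, Zfp42-positive cells 8.41% and 11.4%, Eomes-positive cells 2.57% and 2.83%, and Sox17-positive cells 1.77% and 2.45%. Gates overlap. Zfp42-positive cells formed 35.1% of the untreated and 16.7% of the dTAG-13 Sfn gate, and 86.6% and 86.1% of the Zfp42 gate were Sox2-positive. Of the T gate, 15.8% and 7.09% were also Tbx6-positive, and summed notochord markers in that gate stood at 56.1 and 135 CPM.

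The gates were checked against marker lists of their lineages and of others. Among untreated cells, at least 2-fold higher levels than in the other cells were found for 7 of 8 presomitic mesoderm markers in the Tbx6 gate, 6 of 7 somite markers in the Meox1 gate, and all 7 endoderm, mesendoderm and naive markers in the Sox17, Eomes and Zfp42 gates. The Sfn gate reached this for 7 of 8 epithelial and the Pim2 gate for 7 of 7 epiblast-like markers. The same counts with dTAG-13 were 8, 6, 7, 7, 7, 6 and 5. The Sox2 gate was mixed, with 3 of 7 spinal cord and 2 of 8 axial progenitor markers untreated and 0 of each with dTAG-13, and all 7 naive markers in both libraries. The untreated Sfn gate also reached it for 7 of 7 naive markers, which summed to 2250.0 CPM against 619.5 CPM for its epithelial list, and with dTAG-13 for 0. The Pim2 gate reached it for 4 of 7 naive markers untreated and 1 with dTAG-13. They summed there to 1274.2 and 687.9 CPM, beside 1311.3 and 1554.4 CPM for its epiblast-like list. Zfp42-positive cells formed 29.5% and 17.4% of the Pim2 gate. Untreated Sox17 and Eomes gates each reached it for 6 of 7 markers of the other's list. The T gate reached it for 3 and 4 of 8 axial progenitor and for 4 and 6 of 7 notochord markers. It did so for 4 and 3 of 8 presomitic mesoderm markers too. These summed there to 845.7 and 650.1 CPM, against 225.7 and 122.8 CPM in the other cells. Endothelial markers in the Sox17 gate reached it for 4 of 7 untreated and 0 with dTAG-13. Cardiac markers reached it for 3 of 5 in the Eomes gate of both libraries. They summed there to 158 and 180 CPM, against 4.39 and 5.50 CPM in the other cells. Most of this was Myl7, at 149.6 and 171.5 CPM. In the Sox17 gate cardiac markers summed to 57.1 and 54.4 CPM, against 8.27 and 10.6 CPM.

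Promoters are shown for 3 genes whose levels differed in at least 1 gate and whose RefSeq window holds no exon base. Fgf18 also met both conditions and is not printed. Each line gives the 250 bases before the RefSeq start on GRCm38.p6, 5′ to 3′ on the gene's strand. Capitals mark CACCTG or its core CACCT on either strand (read as CAGGTG or AGGTG on the other), an E-box type known to be bound by ZEB factors. The core lies within the longer motif.
Fgf4: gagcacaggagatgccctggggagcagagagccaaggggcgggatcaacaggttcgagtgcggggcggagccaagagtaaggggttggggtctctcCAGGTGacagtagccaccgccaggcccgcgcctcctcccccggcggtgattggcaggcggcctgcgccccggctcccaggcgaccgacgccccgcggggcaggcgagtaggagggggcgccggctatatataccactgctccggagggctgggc
Fgf5: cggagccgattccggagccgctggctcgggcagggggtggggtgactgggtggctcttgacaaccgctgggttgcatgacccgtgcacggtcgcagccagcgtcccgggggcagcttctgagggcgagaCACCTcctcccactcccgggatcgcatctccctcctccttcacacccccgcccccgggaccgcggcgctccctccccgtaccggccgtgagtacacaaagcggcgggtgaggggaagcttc
Fgfbp1: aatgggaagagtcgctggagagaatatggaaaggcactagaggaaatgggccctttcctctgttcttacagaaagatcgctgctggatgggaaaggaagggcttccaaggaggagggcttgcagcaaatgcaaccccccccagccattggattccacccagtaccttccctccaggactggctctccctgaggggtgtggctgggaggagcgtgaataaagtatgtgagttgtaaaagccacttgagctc
The windows were chr7:144861136-144861385 (plus strand) for Fgf4, chr5:98253934-98254183 (plus strand) for Fgf5 and chr5:43981800-43982049 (minus strand) for Fgfbp1. The RefSeq start of Fgf4 lies inside the longer GENCODE model of the gene. The Fgf4 window held 1 CACCTG match, whose core starts at -153. The Fgf5 window held 1 CACCT match at -121, and the Fgfbp1 window no match to either. Of all 32851 windows of this length, 17.2% held CACCTG and 46.0% held CACCT. Of the 10 genes, 7 had an entry in the RefSeq promoter table. Among those not printed, Fgf3 had 3 CACCT matches, Fgf10 had 1, and Fgf18 and Fgfbp3 had none. A match here is only a description of the letters.

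Over whole libraries, 2 of the 10 genes were called lower with dTAG-13 (Fgf3 and Fgfbp3) and 2 higher (Fgf5 and Fgfbp1). The same call was made for 0.832% of all 19470 genes tested in the lower and 2.32% in the higher direction, and for 1.25% and 2.94% of the 10214 genes with at least 4 CPM in 1 library. The median ratio was -0.26 over the 10 genes and 0.02 over all genes tested. Fgf18 stood just short of the call at -0.57, and Fgf3 just past it at -0.60. Fgf8, Fgf4 and Fgf17 were lower without reaching 1.5-fold, at -0.37, -0.30 and -0.22. Fgf10 and Fgf15 differed by 0.01 and -0.02. A whole-library sum cannot tell fewer expressing cells from less RNA per cell, so the gates are taken in turn.

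**Figure D1:**
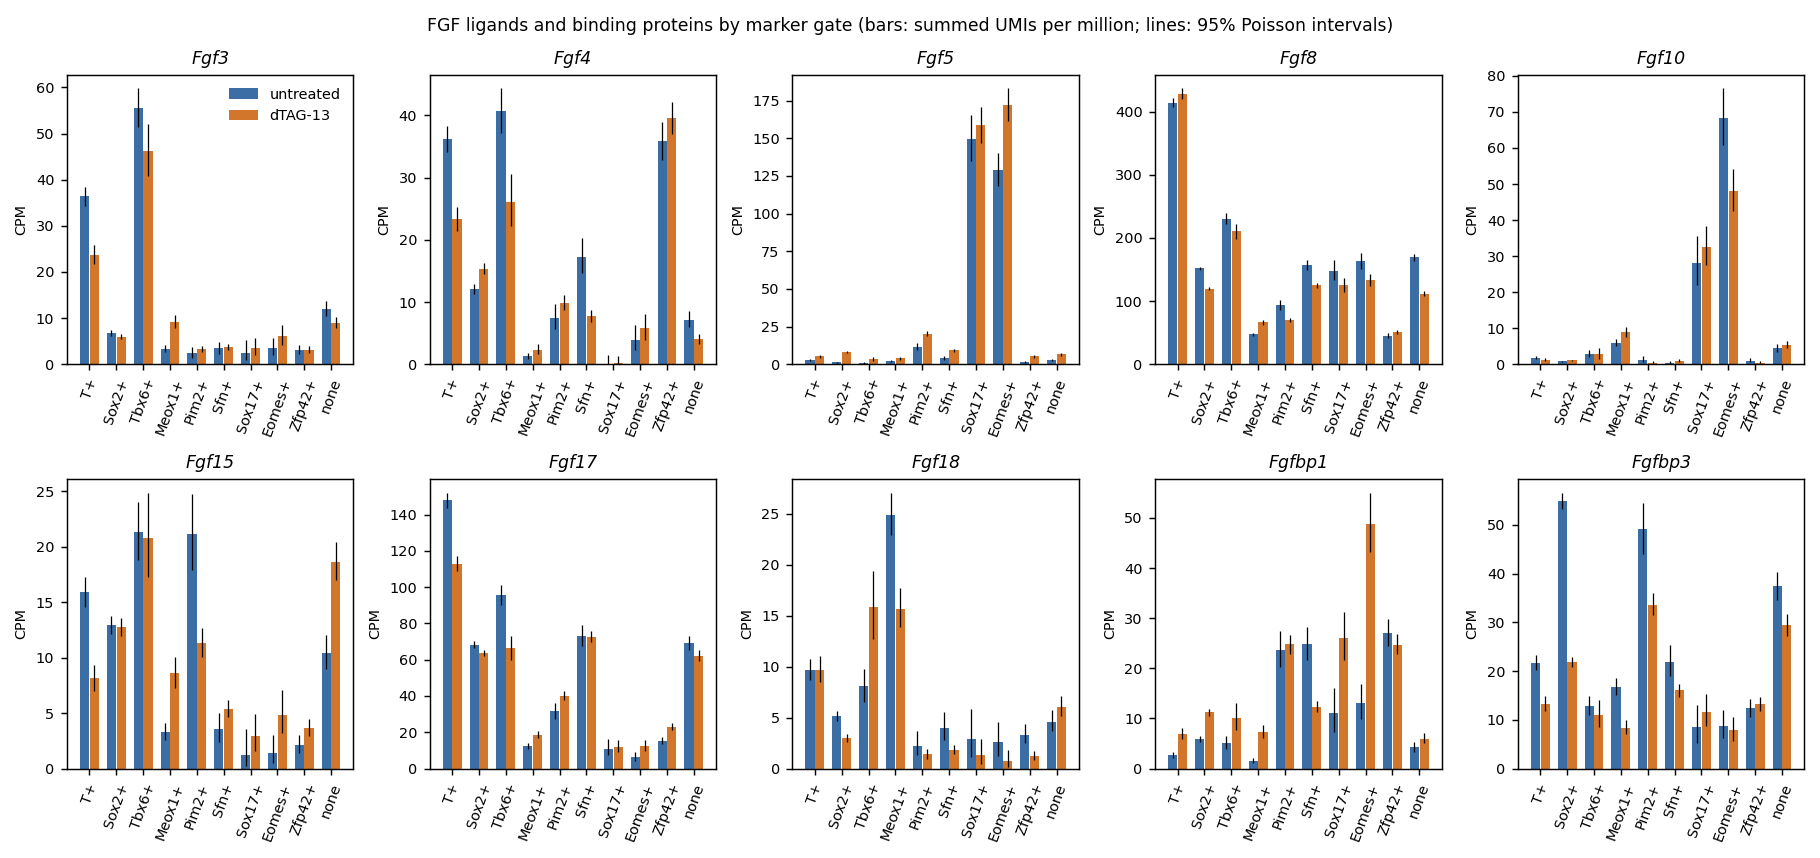
Level of each gene in CPM (vertical axes, linear, each panel on its own scale) in the 9 overlapping marker gates and in cells of no gate, for the untreated (blue) and dTAG-13 (orange) libraries; bars are summed counts and lines are 95% Poisson intervals. Fgf8 and Fgf17 were highest in the T gate, Fgf5 in the Sox17 and Eomes gates, and Fgf10 in the Eomes gate.

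Fgf8, the best known ligand of the posterior growth zone (ENSMUSG00000025219, chr19:45736798-45742915, minus strand, GRCm38), was highest in T-positive cells in both libraries. Its level there was 414 CPM (407 to 421) untreated and 428.5 CPM (420 to 437) with dTAG-13, a ratio of 0.05. The Tbx6 gate followed at 230.5 and 210 CPM, and the Zfp42 gate was lowest at 45.3 and 51.4 CPM. The T gate thus kept its Fgf8 level while it held fewer cells, and it supplied 58.7% of untreated and 50.6% of dTAG-13 Fgf8 UMIs. Fgf8 reached 1.5-fold in none of the 9 gates as defined, but Sfn-positive cells without Zfp42 stood at 245 and 142 CPM, a ratio of -0.79 (-0.88 to -0.70), against -0.33 in the whole Sfn gate. With cells thinned to 5000 UMIs, Fgf8 was detected in 72.8% and 71.4% of T-positive cells, against 8.03% and 10.35% of Zfp42-positive cells, a gate that should lack it (median depths 21057 and 20182 UMIs against 26201.5 and 27324). Without thinning these shares were 93.1% and 87.2% against 19.1% and 20.9%. The Zfp42 gate also holds cells of other gates. Cells with Zfp42 and no other marker except Sox2 had 12.2 and 10.2 CPM of Fgf8. In cells positive for none of the markers Fgf8 had 169 CPM in the untreated and 112 CPM in the dTAG-13 library, a ratio of -0.59.

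Fgf17, a close relative of Fgf8 (ENSMUSG00000022101, chr14:70636203-70642268, minus strand), was also highest in the T gate. It stood at 148 CPM (144 to 152) untreated and 113 CPM (109 to 117) with dTAG-13. The ratio of -0.39 (-0.46 to -0.32) lay apart from 0 by counting error but short of 1.5-fold. The thinned share of T-positive cells with Fgf17 was 48.2% and 35.7%, against 5.35% and 7.34% in the Zfp42 gate. The Zfp42 gate held 15.3 and 23.0 CPM of Fgf17, and its cells with no other marker except Sox2 held 11.15 and 10.31 CPM. In the Tbx6 gate Fgf17 was at 95.4 and 66.2 CPM, a ratio of -0.52. Sfn-positive cells held 73.1 and 72.8 CPM, and with dTAG-13 the intervals of the Sfn and Tbx6 gates overlapped. Without Zfp42-positive cells the Sfn gate held 114 and 84.0 CPM, a ratio of -0.44 (-0.57 to -0.31), beside -0.35 in the T gate. Across gates Fgf17 was called higher in the Eomes gate alone (6.27 to 12.4 CPM), and without Zfp42-positive cells that ratio was 0.08.

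Fgf3, a ligand of the primitive streak and tail bud (ENSMUSG00000031074, chr7:144838083-144844436, plus strand), was highest in the Tbx6 gate and next in the T gate, with no overlap of intervals. The Tbx6 gate stood at 55.5 CPM (51.4 to 59.8) and 46.3 CPM (40.9 to 52.1). The T gate stood at 36.4 CPM (34.4 to 38.4) and 23.7 CPM (21.8 to 25.7), a ratio of -0.60. Cells positive for both T and Tbx6 held the most, at 75.8 and 60.7 CPM. Meox1-positive cells went the other way, from 3.27 CPM (2.56 to 4.11) to 9.17 CPM (7.77 to 10.7), a ratio of 1.25. Among Meox1-positive cells with neither Tbx6 nor T the levels were 2.13 and 8.14 CPM. In T-positive cells the call held in 10 of 15 alternatives and the ratio lay between -0.89 and -0.47 in all of them. A call is counted here and below as held when the ratio stays past 1.5-fold. A changed minimum of UMIs leaves the ratio as it is, and a prior of 0.5 CPM moves it away from 0. These alternatives therefore could not end a call. In Meox1-positive cells it held in 14 of 15, and the ratio was 0.48 with no doublet removal.

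Fgf4, a ligand of the primitive streak and of naive pluripotent cells (ENSMUSG00000050917, chr7:144847367-144865243, plus strand, the neighbour of Fgf3 at 2.9 kb), was high in the overlapping T and Tbx6 gates and in the Zfp42 gate. It stood at 36.2 CPM (34.2 to 38.3) untreated and 23.3 CPM (21.4 to 25.4) with dTAG-13 in the T gate, a ratio of -0.61. In the Tbx6 gate it stood at 40.7 CPM (37.2 to 44.4) and 26.1 CPM (22.1 to 30.7), a ratio of -0.62. Cells with T held 411 of the 504 untreated and 117 of the 152 dTAG-13 UMIs of that gate. Tbx6-positive cells without T stood at 14.5 and 11.1 CPM, a ratio of -0.36 (-0.99 to 0.19). The Zfp42 gate held 35.8 CPM (32.8 to 39.0) and 39.6 CPM (37.1 to 42.2), a ratio of 0.14. The untreated order of the Tbx6, T and Zfp42 gates was not resolved by counting error, while with dTAG-13 the Zfp42 gate stood above the others. Of all Fgf4 UMIs, the T gate held 61.3% untreated and 31.9% with dTAG-13, and the Zfp42 gate 26.1% and 55.0%. Fgf4 was at 0 UMIs in untreated Sox17-positive cells, which allows up to 1.50 CPM by the Poisson interval, and at 0.223 CPM with dTAG-13. In the Sfn gate it was 17.3 and 7.73 CPM, a ratio of -1.06. Among Sfn-positive cells without Zfp42 the ratio was -1.67, from 11.8 to 3.00 CPM, but 65.6% of the untreated UMIs lay in 5 cells. For cells of the Sfn gate positive for no other marker the ratio was 0.90. The T call held in 12 of 15 alternatives and the Tbx6 call in 8, and both fell short of 1.5-fold without Zfp42-positive cells, at -0.56 and -0.44. The T ratio lay between -0.70 and -0.54 in all alternatives, while the Tbx6 ratio was -0.27 after thinning and 0.019 in cells of exactly 1 marker.

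Within the T gate, Fgf4 was detected more often in cells with Fgf3. Among thinned untreated T-positive cells with Fgf3, 33.0% (26.9% to 39.7%) also held Fgf4, against 11.2% of those without. With dTAG-13 these shares were 26.1% (17.5% to 36.3%) and 7.84%. Such a contrast was not particular to this pair. Untreated T-positive cells with Fgf15 held Fgf4 in 38.64%, against 13.03% without, while for Fgfbp3 it was 4.55% against 15.34%. Untreated cells with T and Tbx6 had 75.8 CPM of Fgf3 and 68.8 CPM of Fgf4. Those with T and Sox2 but not Tbx6 had 17.75 and 21.13 CPM. The part of this mixture in the shared detection was not tested.

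Fgf15, the mouse counterpart of human FGF19 (ENSMUSG00000031073, chr7:144896531-144900953, plus strand), was highest in the Tbx6 gate, at 21.3 and 20.8 CPM. The untreated Pim2 gate, at 21.1 CPM, was not separated from it by counting error. Parts of the Tbx6 gate went in opposite directions. Tbx6-positive cells with T stood at 32.8 and 20.4 CPM, a ratio of -0.66. Those without T stood at 10.6 and 21.2 CPM (68 and 67 UMIs), a ratio of 0.94 (0.49 to 1.51). The T gate was called lower, from 15.9 CPM (14.6 to 17.3) to 8.12 CPM (7.01 to 9.34), a ratio of -0.89. The Meox1 gate was called higher, from 3.27 CPM (2.56 to 4.11) to 8.57 CPM (7.22 to 10.1), a ratio of 1.17. Cells positive for none of the markers were higher as well, from 10.4 to 18.6 CPM (186 and 449 UMIs), a ratio of 0.78. The whole-library level was almost equal, at 11.8 and 11.6 CPM. Single cells carry much of it: 1 untreated Pim2-positive cell held 41 UMIs, and 5 cells held 52.7% of the untreated Pim2 gate, whose ratio of -0.85 became -0.12 without the 5 highest cells of each library. The T call ended at 1 UMI as the gate and at 5% mitochondrial UMIs (-0.48), and the Meox1 call at 1 UMI as the gate (0.46). Fgf15 overlaps the antisense genes Gm26793 and Gm39119, and no source used here says whether the counting used strand.

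The T gate held a smaller share of Tbx6-positive cells and more notochord marker counts with dTAG-13, as given above. Krt19 was the highest marker of the notochord list there, at 24.1 and 66.2 CPM. Outside the T gate that list stood at 23.9 and 48.5 CPM. Sfn-positive cells formed 3.97% and 12.8% of the T gate, and its summed epithelial markers stood at 201 and 628 CPM. The part of notochord or epithelial cells in the differences of the T gate was not tested. In cells with T but neither Sox2 nor Tbx6, Fgf3 stood at 39.9 and 25.1 CPM (ratio -0.64), Fgf4 at 38.7 and 26.1 CPM (-0.55) and Fgf15 at 14.2 and 6.12 CPM (-1.09). In cells with T and Sox2 but not Tbx6, 522 untreated and 368 with dTAG-13, none of the 3 was called, with ratios of -0.39 for Fgf3, -0.41 for Fgf4 and -0.55 for Fgf15. Cells with T and Tbx6, 219 untreated and 68 with dTAG-13, had 68.8 and 44.1 CPM of Fgf4 (-0.63) and 32.8 and 20.4 CPM of Fgf15 (-0.66). Fgf8 in these cells was almost level, at 330.1 and 339 CPM.

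**Figure D2:**
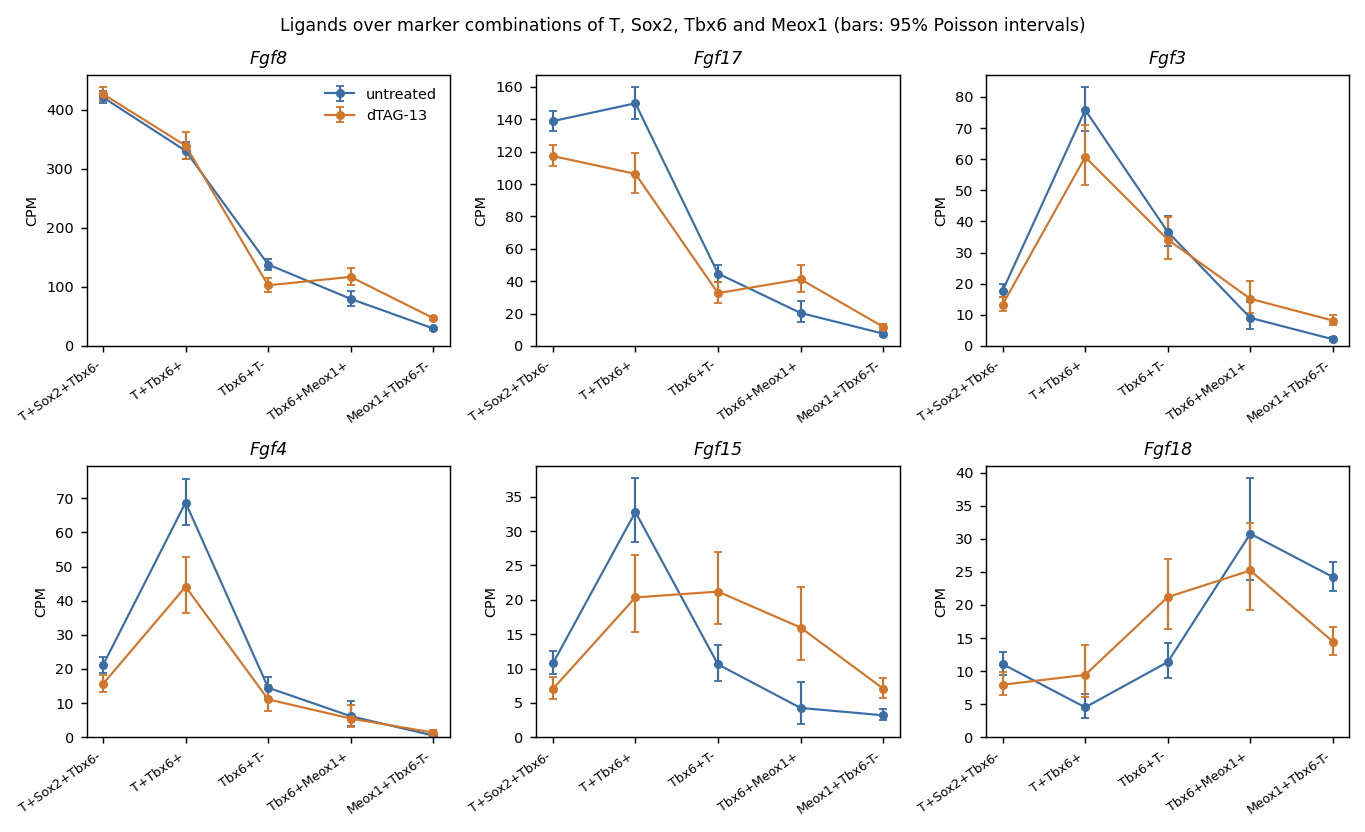
Levels in CPM (vertical axes, linear) of 6 ligands in 5 marker combinations of T, Sox2, Tbx6 and Meox1 (horizontal axis, partly overlapping sets joined by lines), with 95% Poisson intervals; blue is untreated and orange dTAG-13. Fgf3 and Fgf4 were highest in T and Tbx6 double-positive cells, and Fgf8 in cells with T.

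Fgf18, a ligand made in somites and later in the skeleton (ENSMUSG00000057967, chr11:33117430-33147400, minus strand), was the ligand whose highest untreated level lay in Meox1-positive cells. It stood at 24.9 CPM (22.9 to 27.1) untreated and 15.7 CPM (13.9 to 17.7) with dTAG-13, a ratio of -0.63. The Meox1 gate held 49.4% and 33.9% of its UMIs. In the Tbx6 gate the level went from 8.07 CPM (6.56 to 9.81) to 15.8 CPM (12.8 to 19.4), a ratio of 0.89. The gates of highest level with dTAG-13, Tbx6 and Meox1, were not separated by counting error. The Meox1 ratio lay between -0.74 and -0.52 in all alternatives and fell short of 1.5-fold in 3 of 15, and the Tbx6 ratio turned to -0.08 at 1 UMI as the gate. The other 5 lower calls, in the Sox2, Sfn, Sox17, Eomes and Zfp42 gates, rested on levels of at most 5.16 CPM.

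Fgf5, a ligand of the epiblast (ENSMUSG00000029337, chr5:98254184-98277030, plus strand), was highest in the Sox17 and Eomes gates. The Sox17 gate stood at 149.6 CPM (135 to 166) and 159 CPM (147 to 171), and the Eomes gate at 129 CPM (119 to 140) and 172 CPM (161 to 183). Neither reached 1.5-fold, with ratios of 0.08 and 0.41. Cells with both Sox17 and Eomes, 41 untreated and 73 with dTAG-13, held more, at 242 and 253 CPM. They formed 37.3% and 44.5% of the Sox17 gate, and 25.6% and 38.6% of the Eomes gate. Sox17-positive cells without Eomes held 78.5 and 66.2 CPM, and Eomes-positive cells without Sox17 held 91.9 and 118 CPM. The next gate, Pim2, stood at 11.5 and 20.2 CPM. In the Sox2 gate, where the ratio was largest, Fgf5 went from 1.34 CPM (1.10 to 1.63) to 8.04 CPM (7.42 to 8.69), a ratio of 1.95. In Sox2-positive cells without T or Zfp42 it went from 1.36 to 10.4 CPM, a ratio of 2.27, and without Zfp42-positive cells alone the Sox2 ratio was 2.14. The make-up of this gate differed too: Pim2-positive cells formed 5.35% of it untreated and 16.5% with dTAG-13, Sfn-positive cells 7.69% and 23.9%, and summed epiblast-like markers stood at 522 and 1083 CPM. In Sox2-positive cells of no other gate marker the Fgf5 ratio was 1.997. Fgf5 was higher in all 9 gates by sign and called in 7. The Sox2 and Zfp42 calls held in every alternative run, but in cells with Zfp42 and no other marker except Sox2 the levels were 0.627 and 0.982 CPM. The thinned share of Eomes-positive cells with Fgf5 was 40.9% and 49.7%, against 0.442% and 0.801% in the Meox1 gate.

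Fgf10, a ligand of limb and lung mesenchyme (ENSMUSG00000021732, chr13:118669791-118792115, plus strand, overlapping the antisense gene Gm16263), was highest in the same gates as Fgf5. The Eomes gate stood at 68.3 CPM (60.7 to 76.5) and 48.2 CPM (42.6 to 54.3), a ratio of -0.49. The Sox17 gate stood at 28.1 and 32.5 CPM, and the Meox1 gate at 5.91 and 8.81 CPM. The other 6 gates were at or below 2.82 CPM in both libraries. No gate as defined reached 1.5-fold. Eomes-positive cells without Sox17 did, at 74.4 and 44.6 CPM, a ratio of -0.73 (-1.04 to -0.44). In cells with both Eomes and Sox17 the ratio was 0.10 (-0.37 to 0.60). After thinning, 23.9% and 20.6% of Eomes-positive cells held Fgf10, against 0.191% and 0.131% of Zfp42-positive cells.

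Fgfbp1, a carrier that mobilises FGFs from the matrix (ENSMUSG00000048373, chr5:43978858-43981779, minus strand), was called higher in 6 gates and lower in 1. In the Eomes gate it went from 13.01 CPM (9.82 to 16.9) to 48.9 CPM (43.3 to 55.0), a ratio of 1.83. In the Meox1 gate it went from 1.48 CPM (1.02 to 2.07) to 7.31 CPM (6.07 to 8.73), a ratio of 1.75, and in the T gate from 2.67 CPM (2.15 to 3.28) to 6.85 CPM (5.84 to 7.99), a ratio of 1.10. The Eomes gate thus became the gate of highest level. The Sfn gate was the only whole gate called lower, with 24.8 CPM (21.6 to 28.3) and 12.3 CPM (11.2 to 13.5), a ratio of -0.95. Without Zfp42-positive cells it held 11.2 and 6.63 CPM. The calls in these 4 gates held in every alternative. The Zfp42 gate, at 27.1 and 24.7 CPM, did not reach 1.5-fold. Parts of 2 gates differed from the whole. Sox17-positive cells with Eomes went from 2.82 to 43.2 CPM (3 and 96 UMIs). Those without Eomes went from 17.3 to 9.26 CPM, a ratio of -0.83 (-1.82 to 0.007). Pim2-positive cells without Zfp42 went from 8.62 to 20.7 CPM, a ratio of 1.17 (0.80 to 1.76), against 0.06 in the whole Pim2 gate. In the Tbx6 gate 69.5% of dTAG-13 UMIs lay in 5 cells, and without the 5 highest cells of each library the ratio was -0.19.

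Fgfbp3, the other binding protein (ENSMUSG00000047632, chr19:36917550-36919615, minus strand), was highest in untreated Sox2-positive cells. The untreated Pim2 gate was not separated from them by counting error. The Sox2 gate stood at 54.9 CPM (53.3 to 56.6) untreated and 21.8 CPM (20.8 to 22.9) with dTAG-13, a ratio of -1.29 (-1.41 to -1.25). In Sox2-positive cells without T or Zfp42 the levels were 73.8 and 28.3 CPM. The Pim2 gate, at 49.1 CPM (44.1 to 54.6) and 33.6 CPM, was the highest with dTAG-13. Without Zfp42-positive cells, the Sox2 and Pim2 gates held 63.9 and 63.7 CPM untreated, and 26.2 and 38.1 CPM with dTAG-13. That part of the Pim2 gate had a ratio of -0.73 (-0.94 to -0.54). The Sfn gate without Zfp42-positive cells had a ratio of -0.77 (-1.06 to -0.54). The thinned share of Sox2-positive cells with Fgfbp3 was 19.5% and 8.51%, against 4.78% and 4.46% of Zfp42-positive cells. It was called lower in the T and Meox1 gates too, at -0.67 and -0.92, and differed by 0.08 in the Zfp42 gate. Within the T gate, cells with Sox2 and without Tbx6 had a ratio of -1.07, whereas cells with neither held nearly equal levels in both libraries, with a ratio of 0.02. In T-positive cells of no other marker the ratio was -0.26. The Sox2 call held in every alternative. The share of untreated Sox2-positive cells that were Zfp42-positive was 15.2%, against 21.6% with dTAG-13, and without them the ratio was -1.26.

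**Figure D3:**
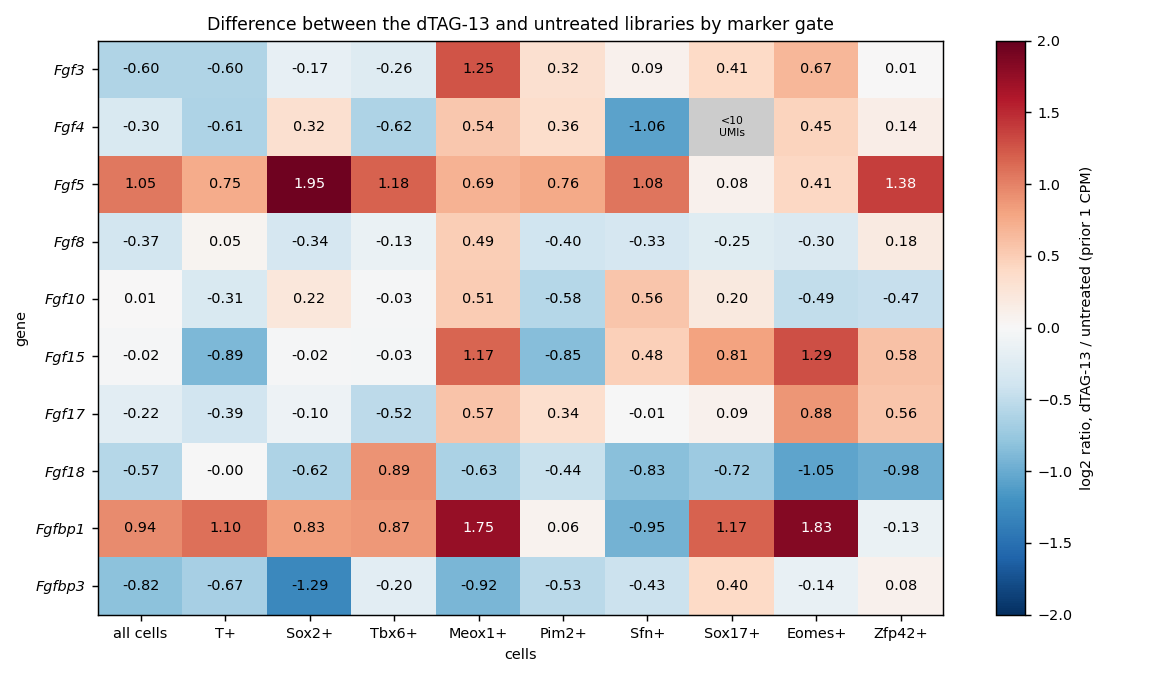
Log2 ratio of dTAG-13 over untreated (colour scale and printed values, prior 1 CPM) for each gene (vertical axis) over all cells and in each gate (horizontal axis); grey marks under 10 UMIs. Fgf5 was above 0 in all 9 gates, and Fgfbp3 had its lowest ratio, -1.29, in the Sox2 gate.

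Over the 9 gates 16 lower and 20 higher calls were made. In the T gate 4 genes were lower and 2 higher, against 1.05% and 4.93% of all genes tested there. The Meox1 gate had 2 lower and 4 higher, against 0.939% and 2.53%, the Sox2 gate 2 and 2, against 1.08% and 2.57%, and the Zfp42 gate 1 and 1, against 0.680% and 1.56%. The other 5 gates had higher backgrounds in the lower direction. The Eomes gate had 1 lower and 4 higher, against 4.48% and 5.62%, and the Tbx6 gate 1 and 3, against 3.10% and 5.46%. The Sfn gate had 3 lower and 1 higher, against 3.58% and 3.22%, the Pim2 gate 1 and 1, against 2.82% and 2.90%, and the Sox17 gate 1 and 2 of 9 tested, against 5.09% and 6.15%. Of the 36 gate calls, 7 held in every alternative: Fgfbp1 in the T, Meox1, Sfn and Eomes gates, Fgf5 in the Sox2 and Zfp42 gates, and Fgfbp3 in the Sox2 gate. The Zfp42 gate calls had 13 alternatives in place of 15, and some alternatives could not end a call, as given for Fgf3.

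The whole-library ratios were also computed with cells sorted into 22 patterns of the 9 markers plus the remainder, an addition made after the data were seen. With the same pattern shares in both libraries and each library's own levels, Fgf3 had a ratio of -0.0039 in place of -0.60. Fgfbp3 had -0.86 in place of -0.82. Fgf5 stood at 0.58 in place of 1.05, and Fgfbp1 at 0.46 in place of 0.94. With shared levels and each library's own pattern shares, the ratios were -0.58 for Fgf3, 0.01 for Fgfbp3, 0.46 for Fgf5 and 0.43 for Fgfbp1. For Fgf3 the gates above went in opposite directions, lower in T and higher in Meox1. The patterns do not hold cell types fixed: within the Sox2 gate, summed spinal cord markers stood at 69.3 and 37.0 CPM and epiblast-like markers at 522 and 1083 CPM. Cell types and levels within them cannot be told apart by this reweighting.

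**Figure D4:**
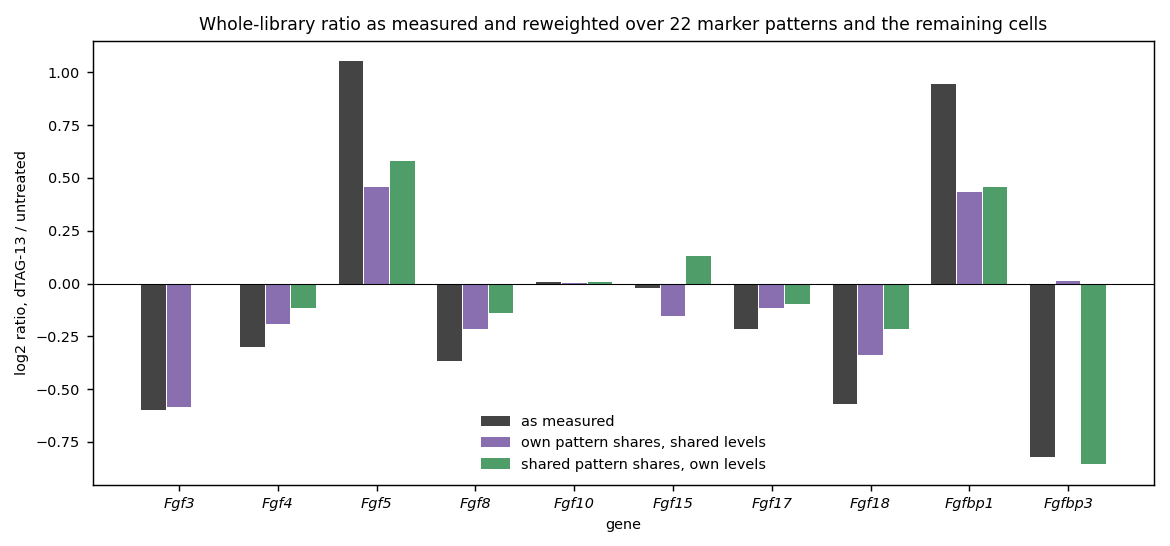
Whole-library log2 ratio of dTAG-13 over untreated (vertical axis) for each gene as measured (dark), with each library's own shares of the marker patterns and shared levels (purple), and with shared pattern shares and each library's own levels (green). The Fgf3 bar for shared pattern shares is near 0 and the Fgfbp3 bar for shared levels is near 0.

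Few other genes of the FGF pathway were called over whole libraries. None of the 7 receptors and co-receptors was called, and Fgfr1, the main receptor of mesoderm, stood at 56.4 and 60.8 CPM. None of 12 other FGF ligands tested, 14 adaptors and ERK cascade genes or 3 matrix regulators was called. Of 17 ERK feedback genes and targets, whose transcripts rise when the cascade is active, none was called, and their median ratio was -0.09 against 0.02 over all genes. The phosphatases Dusp4 (57.8 and 42.1 CPM) and Dusp6 (25.4 and 19.4 CPM) had ratios of -0.45 and -0.37. Il17rd, an inhibitor of FGF signalling, stood at 80.7 and 62.4 CPM, and the immediate early gene Ier2 was higher, at 85.5 and 99.4 CPM with a ratio of 0.22. Of 19 heparan sulfate proteoglycans and their enzymes, 2 were called higher. These were the syndecan Sdc4, at 35.3 and 57.1 CPM with a ratio of 0.68, and the perlecan gene Hspg2, named after its values were seen, at 9.51 and 14.8 CPM with a ratio of 0.59. Within gates, ERK feedback genes and targets had 3 lower calls of 17 in the Sfn gate, 2 each in the Pim2 and Zfp42 gates, 1 each in the T, Tbx6, Sox17 and Eomes gates, and 0 in the Sox2 and Meox1 gates. Higher calls were 1 each in the T and Sox17 gates. The shares of all genes called in each gate are those given above, 1.05% lower and 4.93% higher in the T gate. The T gate calls, named after their values were seen, were the inhibitor Spry4, lower at 12.9 and 8.16 CPM, and Egr1, higher at 4.64 and 7.48 CPM. In the Meox1 gate 1 of 4 receptors tested was called, Fgfr2, also named after its values were seen, lower at 8.55 and 4.37 CPM. In the Sfn gate 1 of 4 was called lower and 1 higher, and the other gates had no receptor call. Among the other FGF ligands, 1 of 8 tested was lower in the Sox2 gate and 1 of 3 each in the Sox17 and Eomes gates. Higher calls were 1 of 6 in the Pim2 gate, 1 of 7 in the Sfn gate and 1 of 3 in the Sox17 gate.

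The gene most like each ligand or binding protein was sought over the 18 gate values (9 gates in each library) among 9022 genes, by Pearson r of log2 CPM. The r is a description, since gates share cells and each library's depth. The nearest genes were Ets2 for Fgf3 (0.94), Xpo6 for Fgf4 (0.91), Emb for Fgf5 (0.98), Evx1 for Fgf8 (0.93) and Lhx1os for Fgf10 (0.99), followed by Lhx1 (0.99). They were Lrp8 for Fgf15 (0.90), Cdx2 for Fgf17 (0.96), Sparcl1 for Fgf18 (0.92), Ell2 for Fgfbp1 (0.90) and Sox1 for Fgfbp3 (0.94).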

How the data were processed

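Single cells of 2 gastruloid pools were sequenced with a 3' droplet assay. The authors deposited whole-number UMI counts per gene and barcode with no normalization, for which the submitters' processing notes name Cell Ranger 6.1.2 and mm10. Barcodes (7276 untreated, 7873 dTAG-13) with under 1000 genes or over 10% mitochondrial UMIs were removed (630 and 693). Scrublet in scanpy 1.11.5 marked 1 and 0 doublets by its automatic threshold, too few to be credible, so the highest scores were removed at 0.8% per 1000 barcodes (424 and 496, some of which also failed the other filters). Counts were summed per gate; ratios, calls and intervals were as described, and the script was tested on simulated data. Shares were computed after thinning to 5000 UMIs, leaving out 87 and 81 shallower cells, with Clopper-Pearson intervals. Positions come from GENCODE M21, which matched 32235 gene identifiers.

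The genes, gates, lists and tests were chosen with earlier results of these data known. All 10 genes are named. From each pathway list up to 4 genes of at least 20 CPM with the largest ratio, and the 3 genes nearest each member, could be named; genes named outside this rule are marked as such. Alternatives covered gates, scaling (edgeR 4.0.16 TMM and DESeq2 1.42.0 size factors, R 4.3.3), the prior, filters, doublets and depth. With 1 library per group no leave-one-out was possible.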

Additional observations from a re-analysis of the deposited data

Results flagged for a closer look

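For 4 genes the ratio was called lower in 1 gate and higher in another, with intervals apart from 0 in both. None of these differences was tested, since each group was 1 library. Fgf3 stood at 1.25 in the Meox1 gate and -0.60 in the T gate, 1.85 apart. Fgf15 stood at 1.29 in the Eomes gate and -0.89 in the T gate, 2.18 apart, but its Eomes gate held 6 and 27 UMIs and the ratio was -0.03 without Zfp42-positive cells. Fgf18 stood at 0.89 in the Tbx6 gate and -1.05 in the Eomes gate, 1.94 apart, where the Eomes gate held 11 and 4 UMIs. Fgfbp1 stood at 1.83 in the Eomes gate and -0.95 in the Sfn gate, 2.78 apart, and both values stayed past 1.5-fold in every alternative.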

How the results depend on the processing

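The direction of a called ratio changed in 16 instances over all alternatives; the cause was not tested. At 1 UMI as the gate, Fgf18 in Tbx6 was -0.078 and Fgf3 in Eomes -0.013; at 3 UMIs, Fgf15 in Sox17 was -0.074. In cells with exactly 1 marker, Fgf18 in Sox2 was 0.037, Fgf4 in Tbx6 0.019 and in Sfn 0.90, Fgf5 in Tbx6 -0.56, and Fgfbp1 in Sox17 -1.29. At 5% mitochondrial UMIs (4059 and 3803 cells), Fgf18 was 0.72 in Sox17, 0.024 in Eomes and 0.029 in Zfp42. After thinning, Fgf5 in Tbx6 was -0.84, Fgf15 in Eomes -0.77 and Fgf17 in Eomes -0.22. Without Zfp42-positive cells Fgf15 in Eomes was -0.029. Without the 5 highest cells Fgfbp1 in Tbx6 was -0.19. Fgf18 in Sox17 was 0 in the last setting and in cells with exactly 1 marker. Whole-library lower calls numbered 1 in place of 2 with a prior of 5 CPM and at 5% mitochondrial UMIs, and gate lower calls 6 and 9 in place of 16. The gate of highest level in both libraries stayed for 4 of 10 genes in cells with exactly 1 marker (8 gates) and for 6 after thinning. TMM and DESeq2 scaling kept all 36 gate calls. A minimum of 50 UMIs kept 30 of them. No paired analysis was possible because each group had 1 library.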
